A study of Homo sapiens with 9 samples.

Results

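The enzymes and exporters that clear drugs, steroids, bile constituents and other lipophilic compounds were described in HepG2 cells with and without knockdown of TUG1. Members were taken by gene symbol alone: cytochromes P450 (CYP followed by a digit, without CYP51A1), UDP-glucuronosyltransferases (UGT1, UGT2), sulfotransferases (SULT), soluble and membrane-bound glutathione transferases (GST, MGST) and the ABCB, ABCC and ABCG transporters, plus POR, EPHX1 and NR1I2. The rule found 73 members among 13116 genes. Of these, 68 were listed for both knockdown lines, 72 in the sh1-TUG1 table and 69 in the sh2-TUG1 table. CYP2D7, CYP8B1, GSTM2 and SULT1E1 were listed for sh1-TUG1 alone, and CYP17A1 for sh2-TUG1 alone. They comprised 25 CYP genes, 5 UGT2 genes, 9 SULT genes, 10 soluble GST genes, 3 MGST genes, 7 ABCB, 8 ABCC and 3 ABCG genes. Genes of the UGT1 family, CYP3A4, CYP1A2 and GSTP1 were not analysed here.

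Drug metabolism runs in steps. Phase I enzymes, mostly cytochromes P450 of the endoplasmic reticulum that receive electrons from POR, oxidise a compound, and EPHX1 hydrolyses the epoxides that form. Phase II enzymes then join it to glucuronic acid, sulfate or glutathione, and ABC transporters move the conjugates out of the cell at the cost of ATP. NR1I2, the pregnane X receptor, and AHR, the aryl hydrocarbon receptor, are ligand-activated transcription factors known to induce many of these genes in liver. HepG2 cells are known to hold lower levels of many of these enzymes than hepatocytes.

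HepG2 is a human cell line established from a liver cancer. A pair of its lines carried lentiviral hairpins directed at the long non-coding RNA TUG1 (sh1-TUG1 and sh2-TUG1), and the sh-Con line carried a control hairpin, with the hairpins under a doxycycline-inducible promoter in all 3 lines. The dose and length of doxycycline treatment for these libraries were not given in the sources used here, and each hairpin was represented by 1 line, so a hairpin and its line cannot be told apart. RNA-seq was performed on 3 libraries per line, which the study calls technical replicates, so SD and adjusted p cover the spread between these libraries and not between cultures. TUG1 itself was not analysed here, and the line labels were therefore not checked against it.

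Library totals ranged from 33051617 to 39393293 counts, of which the members took 0.337% to 0.385%. All 16 hepatocyte markers looked for, among them ALB, APOA1 and HNF4A, were listed, with a summed level of 51304 to 60812 CPM (counts relative to the library total). Of the markers of other cells, 1 of 7 for stroma, 2 of 4 for endothelium, 1 of 5 for blood cells and 3 of 4 for cholangiocytes were listed. Among those without a row were COL1A1, COL3A1, CDH5, KDR, PTPRC and CD3E. The stroma list, here PDGFRB alone, was at 19.3 to 21.8 CPM in sh-Con, 31.9 to 34.4 CPM in sh1-TUG1 and 53.1 to 58.5 CPM in sh2-TUG1. The endothelial list, PECAM1 and VWF, summed to 8.75 to 9.46, 11.3 to 12.2 and 12.2 to 13.6 CPM in the same order. The blood list, here CD68 alone, was at 59.2 to 71.8, 33.7 to 37.4 and 17.6 to 24.0 CPM, and the cholangiocyte list, EPCAM, KRT19 and SOX9, at 660.8 to 696 CPM, 631 to 645 CPM and 525 to 542 CPM. These marker levels moved with the lines, as many members did, and their part in the members' values was not tested. All libraries were labelled as the HepG2 line, which can itself express EPCAM, KRT19 and SOX9, so these levels do not show that other cells were present. A change in all cells and a change in some of the cells cannot be told apart in such libraries.

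Levels are given below as CPM scaled by the trimmed mean of M values (TMM), and a change as the log2(fold change) from a fit of the 6 libraries compared. Both knockdown lines were set against the same 3 sh-Con libraries, so the lines are not independent of each other. A gene is said to have risen or fallen where its adjusted p, which edgeR's quasi-likelihood F-test gave after Benjamini–Hochberg correction across all genes, was under 0.05, and it is a differentially expressed gene (DEG) where its fold change was also over 1.5.

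More of the members fell than rose in sh2-TUG1 cells, whereas in sh1-TUG1 cells more rose than fell. In sh1-TUG1, 14 of 72 members rose and 8 fell, against 12.5% and 12.3% of all 13017 genes tested. By the DEG criteria 7 were higher and 2 lower, against a background of 2.44% and 2.52%. In sh2-TUG1, 13 of 69 members rose and 32 fell, against 21.6% and 21.9% of all 12953 genes. DEGs numbered 7 higher and 18 lower, against 4.35% and 8.97%. The share of members that fell in sh2-TUG1, 46.4%, thus lay above the background share, and the share that rose, 18.8%, lay near it. The median log2(fold change) of the members was 0.098 with sh1-TUG1 and −0.31 with sh2-TUG1, beside medians of 0.0027 and −0.0048 over all genes. The filter on low counts removed no member and no other gene. The lowest totals listed over 6 libraries were 152 counts for sh1-TUG1 and 140 for sh2-TUG1, so genes below them were not seen. The shares above are therefore of listed genes. CYP17A1 and SULT1E1, each a higher DEG of the only line that lists it, would lie below or near these totals at sh-Con levels.

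**Figure D1:**
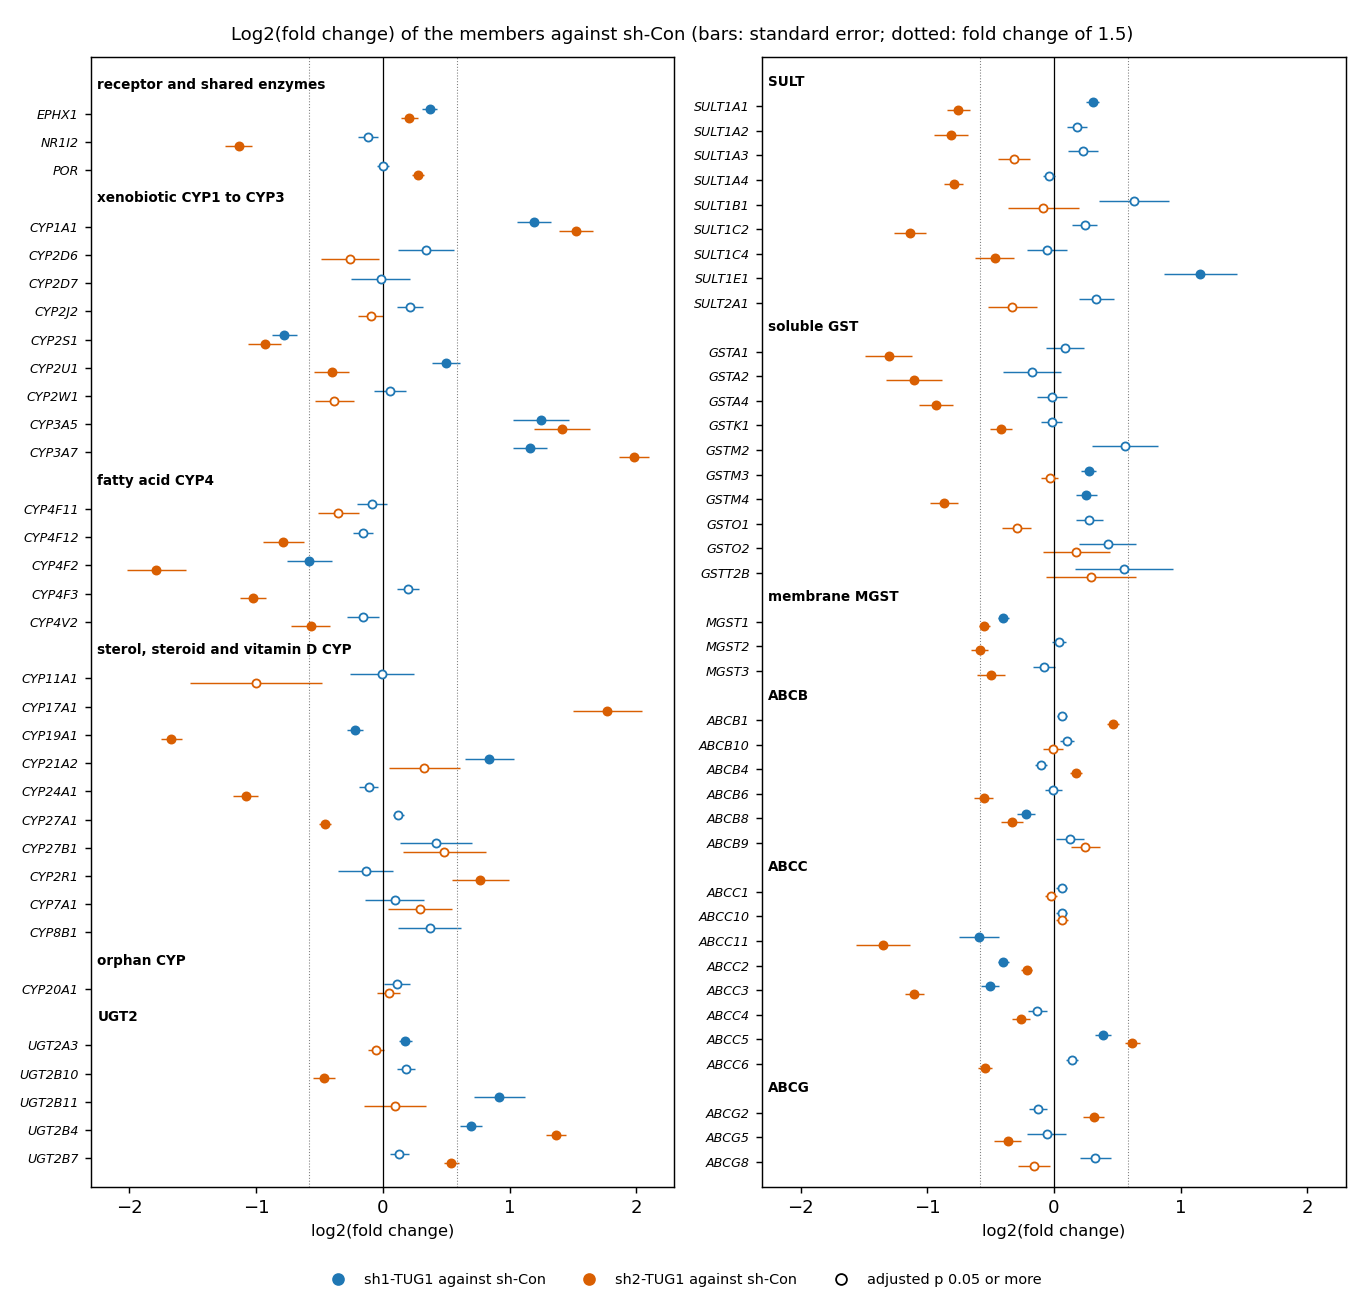
Log2(fold change) against sh-Con on the horizontal axis for the members, ordered by role, in sh1-TUG1 (blue) and sh2-TUG1 (orange). Points are edgeR estimates with standard error bars, filled where the adjusted p was under 0.05, and dotted lines mark a fold change of 1.5. CYP1A1, CYP3A5, CYP3A7 and UGT2B4 lie to the right in both lines, whereas filled orange points of the SULT, GST and CYP4 groups lie to the left.

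POR, EPHX1 and NR1I2 serve the whole system. POR, which passes electrons from NADPH to every microsomal P450, was among the members with the most counts, at 502, 461 and 466 CPM in the sh-Con libraries, 494, 476 and 462 CPM in those of sh1-TUG1 and 578, 575 and 578 CPM in those of sh2-TUG1. The sh2-TUG1 libraries lay above all 6 others. POR had a log2(fold change) of 0.0018 (standard error 0.046, adjusted p = 0.981) with sh1-TUG1 and 0.27 (standard error 0.046, adjusted p = 0.00119) with sh2-TUG1, and the sign of the sh1-TUG1 value, which did not pass the test, depended on the scaling. EPHX1, the microsomal epoxide hydrolase, was at 91.7, 81.6 and 81.3 CPM in the sh-Con libraries, 113, 111 and 105 CPM in those of sh1-TUG1 and 94.4, 94.5 and 106 CPM in those of sh2-TUG1. All 6 knockdown libraries lay above all controls. EPHX1 had a log2(fold change) of 0.37 (standard error 0.059, adjusted p = 0.00188) with sh1-TUG1 and 0.21 (standard error 0.068, adjusted p = 0.0324) with sh2-TUG1, and the sh2-TUG1 call was lost in 3 of the 6 fits that left out 1 library, with adjusted p up to 0.109. The receptor gene NR1I2 (chromosome 3 from 119780484 to 119818485, GRCh38) was at 15.2, 15.1 and 15.6 CPM in the sh-Con libraries, 14.1, 14.6 and 13.6 CPM in those of sh1-TUG1 and 7.41, 6.11 and 7.36 CPM in those of sh2-TUG1. Its sh2-TUG1 libraries were all lower than the other 6, with no overlap. NR1I2 had a log2(fold change) of −0.12 (standard error 0.078, adjusted p = 0.298) with sh1-TUG1 and −1.14 (standard error 0.11, adjusted p = 3.99e-05) with sh2-TUG1, and sh2-TUG1 differed from sh1-TUG1 by −1.02 (standard error 0.096, adjusted p = 8.32e-06) on the log2 scale.

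Members of the P450 and glucuronosyltransferase families rose by more than 1.5-fold in both lines: CYP1A1, CYP3A5, CYP3A7 and UGT2B4. CYP1A1, which oxidises polycyclic aromatic hydrocarbons and is the best known target of AHR, was at 11.4, 7.78 and 8.97 CPM in the sh-Con libraries, 21.1, 19.5 and 23.6 CPM in those of sh1-TUG1 and 30.1, 26.6 and 24.4 CPM in those of sh2-TUG1. No knockdown library overlapped the controls, and the lowest of them was well above the highest control. CYP1A1 had a log2(fold change) of 1.19 (standard error 0.14, adjusted p = 0.000256) with sh1-TUG1 and 1.52 (standard error 0.14, adjusted p = 2.78e-05) with sh2-TUG1. The difference between the hairpins was 0.33 (standard error 0.12, adjusted p = 0.0466), and this call was lost in 5 of the 9 fits that left out 1 library, with adjusted p up to 0.171.

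CYP3A5, which oxidises many of the drugs that CYP3A4 also takes, was at 2.96, 4.85 and 2.68 CPM in the sh-Con libraries, 9.40, 7.97 and 7.48 CPM in those of sh1-TUG1 and 8.24, 9.37 and 10.3 CPM in those of sh2-TUG1. Its levels in both knockdown lines overlapped each other but not the controls. CYP3A5 had a log2(fold change) of 1.24 (standard error 0.22, adjusted p = 0.00324) with sh1-TUG1 and 1.41 (standard error 0.22, adjusted p = 0.000799) with sh2-TUG1, while sh2-TUG1 against sh1-TUG1 was 0.17 (standard error 0.19, adjusted p = 0.505). CYP3A7, the CYP3A enzyme of fetal liver, was at 7.72, 6.59 and 9.62 CPM in the sh-Con libraries, 18.2, 16.5 and 18.8 CPM in those of sh1-TUG1 and 30.9, 31.5 and 32.4 CPM in those of sh2-TUG1. The 3 groups did not overlap, with sh2-TUG1 the highest. CYP3A7 had a log2(fold change) of 1.16 (standard error 0.13, adjusted p = 0.000296) with sh1-TUG1 and 1.98 (standard error 0.12, adjusted p = 2.97e-06) with sh2-TUG1, and the step from sh1-TUG1 to sh2-TUG1 was 0.83 (standard error 0.11, adjusted p = 8.82e-05). CYP3A7 is uncertain as a single gene, since 37.7% of its 100-base transcript stretches are also found in other genes, chiefly the read-through gene CYP3A7-CYP3A51P on the same strand. CYP3A5 (chromosome 7 from 99648194 to 99680026) and CYP3A7 (chromosome 7 from 99684957 to 99735196) are neighbours on the minus strand of GRCh38.

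The promoters of CYP1A1, CYP3A5 and CYP3A7, which were picked from these data as risers of both lines, are printed. Whether AHR or nuclear receptors act on these windows was not tested. Each runs 5′ to 3′ from 250 bases before to 50 bases after the RefSeq start (GRCh38.p14, minus strand), at chr15:74725479-74725778 for CYP1A1, chr7:99679947-99680246 for CYP3A5 and chr7:99735147-99735446 for CYP3A7. Capitals mark the motifs searched on both strands: the AHR core GCGTG, the nuclear receptor half-site AGGTCA, the TATA box TATAAA, the HNF1 half-site GTTAAT and the NRF2 element TGACNNNGC.
CYP1A1: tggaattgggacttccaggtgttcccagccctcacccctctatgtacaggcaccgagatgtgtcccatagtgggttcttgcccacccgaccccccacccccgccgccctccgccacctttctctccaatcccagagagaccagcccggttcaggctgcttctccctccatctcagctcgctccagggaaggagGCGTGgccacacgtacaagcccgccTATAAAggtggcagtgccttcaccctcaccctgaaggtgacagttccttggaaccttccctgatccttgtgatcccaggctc
CYP3A5: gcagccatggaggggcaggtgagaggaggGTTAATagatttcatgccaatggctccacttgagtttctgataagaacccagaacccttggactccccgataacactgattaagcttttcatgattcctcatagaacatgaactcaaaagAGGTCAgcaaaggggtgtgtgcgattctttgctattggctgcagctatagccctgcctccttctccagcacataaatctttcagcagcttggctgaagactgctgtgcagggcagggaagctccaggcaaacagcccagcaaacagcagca
CYP3A7: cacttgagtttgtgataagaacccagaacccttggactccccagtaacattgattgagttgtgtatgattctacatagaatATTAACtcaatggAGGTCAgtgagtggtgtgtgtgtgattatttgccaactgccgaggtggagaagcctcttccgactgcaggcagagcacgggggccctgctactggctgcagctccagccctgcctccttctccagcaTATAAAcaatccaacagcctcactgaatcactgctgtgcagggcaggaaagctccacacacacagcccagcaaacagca

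The CYP1A1 window held GCGTG from −57 to −53 and TATAAA from −32 to −27, counted from the start site. GCGTG was present in 36.5% of 35116 promoters of this length, and TATAAA in 11.5%. Both CYP3A windows held AGGTCA, which 13.8% of promoters held, from −101 to −96 in CYP3A5 and from −156 to −151 in CYP3A7. Both also held the HNF1 half-site, found in 6.88% of promoters, and CYP3A7 alone of the pair held TATAAA. The marked motifs did not overlap one another. TGACNNNGC, which 13.3% of promoters held, was not among the letters of these windows. Such matches describe the letters alone. RefSeq promoter entries were matched for 56 of the 73 members, and UGT2B4 had none.

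**Figure D2:**
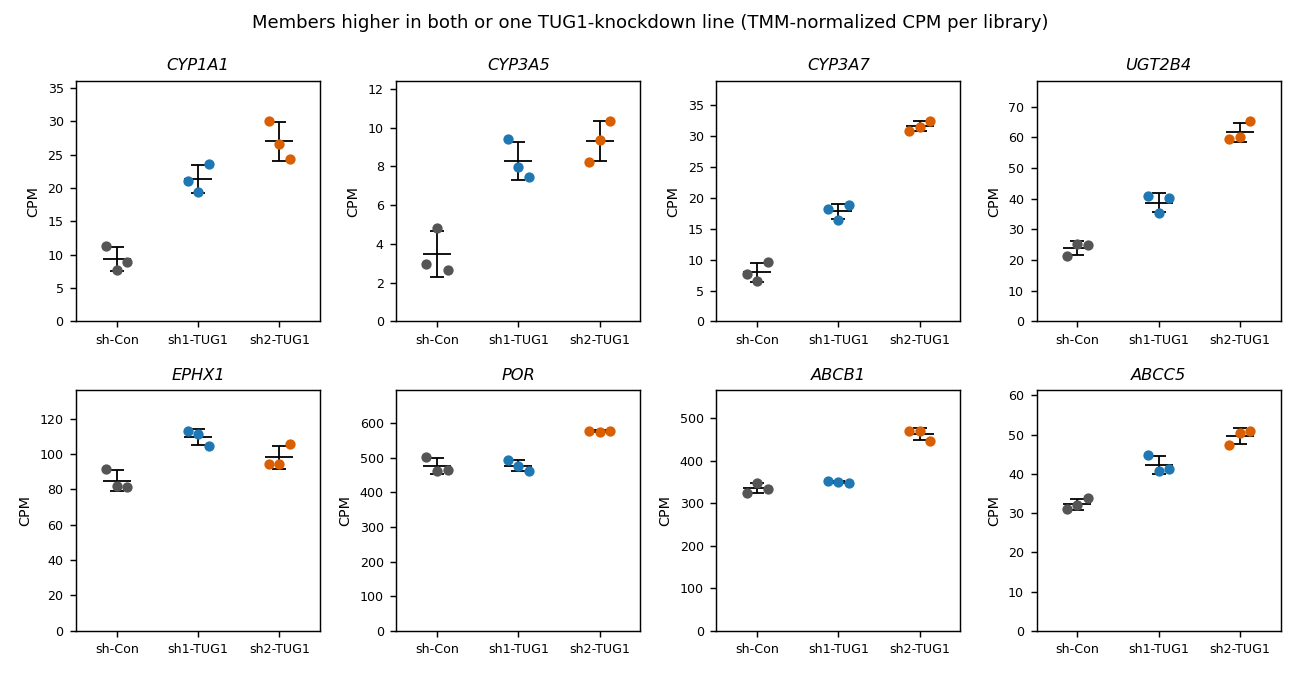
TMM-normalized CPM (vertical axis, from 0) of 8 members, chosen from these data as higher in either or both knockdown lines, in each library of the sh-Con, sh1-TUG1 and sh2-TUG1 lines. Points are libraries, and the dash and bars are the mean ± SD of 3 libraries. CYP1A1, CYP3A7, UGT2B4 and ABCC5 step up from sh-Con to sh1-TUG1 to sh2-TUG1 without overlap. In ABCB1 and POR the sh2-TUG1 libraries lie above all others, while those of sh1-TUG1 lie close to the controls (ABCB1) or among them (POR).

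The other P450 genes of families CYP1 to CYP3 that act on drugs and foreign compounds went in several directions. CYP2S1, an extrahepatic P450 of the CYP2 family, fell in both lines, from 17.8 ± 1.43 CPM (SD, n = 3) in the controls to 10.3 ± 0.891 CPM with sh1-TUG1 and 9.28 ± 1.66 CPM with sh2-TUG1. CYP2S1 had a log2(fold change) of −0.78 (standard error 0.099, adjusted p = 0.000487) with sh1-TUG1 and −0.93 (standard error 0.13, adjusted p = 0.00041) with sh2-TUG1. CYP2U1, which hydroxylates long-chain fatty acids, was at 8.54, 7.30 and 7.96 CPM in the sh-Con libraries, 12.0, 10.6 and 11.0 CPM in those of sh1-TUG1 and 5.48, 5.66 and 6.84 CPM in those of sh2-TUG1. The sh1-TUG1 libraries were above and the sh2-TUG1 libraries below all controls. CYP2U1 had a log2(fold change) of 0.50 (standard error 0.11, adjusted p = 0.00982) with sh1-TUG1 and −0.41 (standard error 0.14, adjusted p = 0.0401) with sh2-TUG1. The difference between hairpins was −0.90 (standard error 0.12, adjusted p = 0.000126), and the fall in sh2-TUG1 was lost in 4 of the 6 fits that left out 1 library, with adjusted p up to 0.121. CYP2D6, the enzyme of codeine and many antidepressants, was expressed near the bottom of the range, at 2.38, 1.86 and 1.90 CPM in the sh-Con libraries, 3.16, 2.26 and 2.36 CPM in those of sh1-TUG1 and 1.57, 1.53 and 2.02 CPM in those of sh2-TUG1. Neither line passed the test against sh-Con. The hairpins differed by −0.60 (standard error 0.22, adjusted p = 0.0456), a call lost in 6 of the 9 fits that left out 1 library, with adjusted p up to 0.168. CYP2D6 shares 13.5% of its stretches with the pseudogene CYP2D7, so its counts are uncertain. CYP2J2, an arachidonic acid epoxygenase, had log2(fold change) values of 0.21 and −0.096, and CYP2W1 had 0.055 and −0.38. None of these 4 values passed the test.

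The CYP4 genes, whose enzymes hydroxylate the far end of fatty acids, eicosanoids and vitamin K side chains, were lower in sh2-TUG1. There 4 of 5 fell and 3 were lower DEGs, against 21.9% and 8.97% of all genes. In sh1-TUG1, 1 of 5 fell, beside 12.3% of all genes. CYP4F2, CYP4F3, CYP4F11 and CYP4F12 lie in 1 cluster on chromosome 19, from 15640897 to 15934867. CYP4F2, a vitamin K1 hydroxylase, was at 5.83, 5.59 and 6.51 CPM in the sh-Con libraries, 3.10, 4.69 and 4.19 CPM in those of sh1-TUG1 and 2.37, 1.56 and 1.30 CPM in those of sh2-TUG1. The 3 groups did not overlap. CYP4F2 had a log2(fold change) of −0.58 (standard error 0.18, adjusted p = 0.0414) with sh1-TUG1 and −1.79 (standard error 0.24, adjusted p = 0.000303) with sh2-TUG1, and the sh1-TUG1 call was lost in 5 of the 6 fits that left out 1 library, with adjusted p up to 0.116. CYP4F3, which inactivates leukotriene B4, was at 15.9, 18.0 and 18.6 CPM in the sh-Con libraries, 20.3, 18.7 and 21.3 CPM in those of sh1-TUG1 and 7.88, 9.19 and 8.76 CPM in those of sh2-TUG1. The sh2-TUG1 libraries lay below the other 6, and the sh1-TUG1 libraries just above the controls. CYP4F3 had a log2(fold change) of 0.20 (standard error 0.088, adjusted p = 0.133) with sh1-TUG1 and −1.03 (standard error 0.10, adjusted p = 6.16e-05) with sh2-TUG1, with −1.22 (standard error 0.094, adjusted p = 1.85e-06) between the hairpins. CYP4F12 was at 22.4, 21.4 and 24.5 CPM in the sh-Con libraries, 20.3, 19.3 and 21.6 CPM in those of sh1-TUG1 and 10.8, 11.3 and 17.5 CPM in those of sh2-TUG1. The third sh2-TUG1 library stood above the other two but under every other library. CYP4F12 had a log2(fold change) of −0.16 (standard error 0.079, adjusted p = 0.178) with sh1-TUG1 and −0.78 (standard error 0.16, adjusted p = 0.00413) with sh2-TUG1. CYP4F11 (−0.35) did not pass the test in sh2-TUG1, and CYP4V2, an ocular fatty acid hydroxylase, fell by 0.57 on the log2 scale, a call lost in 2 of the 6 fits that left out 1 library, with adjusted p up to 0.0576.

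Among the P450 genes of sterol, steroid and vitamin D metabolism, CYP19A1 and CYP24A1 were the members that fell furthest in sh2-TUG1. CYP19A1, the aromatase that makes estrogens, was at 45.1, 47.0 and 46.5 CPM in the sh-Con libraries, 36.9, 39.7 and 42.4 CPM in those of sh1-TUG1 and 14.2, 13.1 and 16.3 CPM in those of sh2-TUG1. The sh2-TUG1 libraries lay far below all others. CYP19A1 had a log2(fold change) of −0.22 (standard error 0.063, adjusted p = 0.0305) with sh1-TUG1 and −1.67 (standard error 0.083, adjusted p = 1.03e-06) with sh2-TUG1, and the sh1-TUG1 call was lost in 4 of the 6 fits that left out 1 library, with adjusted p up to 0.111. CYP24A1, which inactivates vitamin D, was at 21.5, 23.6 and 24.4 CPM in the sh-Con libraries, 21.3, 21.5 and 21.5 CPM in those of sh1-TUG1 and 10.2, 10.4 and 12.2 CPM in those of sh2-TUG1. The sh2-TUG1 libraries were the lowest, with no overlap. CYP24A1 had a log2(fold change) of −0.11 (standard error 0.072, adjusted p = 0.286) with sh1-TUG1 and −1.08 (standard error 0.098, adjusted p = 3.01e-05) with sh2-TUG1. CYP27A1, the sterol 27-hydroxylase of bile acid synthesis, was at 150.3, 156 and 152 CPM in the sh-Con libraries, 166, 171 and 161 CPM in those of sh1-TUG1 and 113, 112 and 109.9 CPM in those of sh2-TUG1. The order was sh1-TUG1, sh-Con, sh2-TUG1, with no overlap between groups. CYP27A1 had a log2(fold change) of 0.12 (standard error 0.043, adjusted p = 0.0726) with sh1-TUG1 and −0.46 (standard error 0.045, adjusted p = 5.53e-05) with sh2-TUG1.

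CYP2R1, a vitamin D 25-hydroxylase, was low, at 1.83, 1.42 and 1.71 CPM in the sh-Con libraries, 1.38, 1.52 and 1.62 CPM in those of sh1-TUG1 and 3.26, 2.33 and 2.88 CPM in those of sh2-TUG1. Its sh2-TUG1 libraries were above the others. CYP2R1 had a log2(fold change) of −0.14 (standard error 0.22, adjusted p = 0.697) with sh1-TUG1 and 0.77 (standard error 0.23, adjusted p = 0.0207) with sh2-TUG1, and the sh2-TUG1 call was lost in 4 of the 6 fits that left out 1 library, with adjusted p up to 0.0711. CYP17A1, the steroid 17-hydroxylase, was listed for sh2-TUG1 alone, at 0.361, 0.322 and 0.452 CPM in the controls and 1.43, 1.15 and 1.33 CPM in the knockdown libraries. The libraries of the lines did not overlap, and the log2(fold change) was 1.77 (standard error 0.27, adjusted p = 0.000743). At its sh-Con level in all 6 libraries, its total would lie below 140 counts, the lowest total listed for sh2-TUG1. CYP17A1 was thus listed through its high sh2-TUG1 counts, and its rise and lack of overlap are not independent of that listing. Of its exon bases, 41.1% are overlapped by WBP1L on the other strand, and whether reads were counted by strand was not given in the sources used here. CYP21A2, the steroid 21-hydroxylase, rose in sh1-TUG1 by 0.84 (standard error 0.20, adjusted p = 0.0121) on the log2 scale, a call lost without the third sh1-TUG1 library (adjusted p = 0.0537). It shares 20.0% of its stretches with other genes, mainly the pseudogene CYP21A1P, and part of its exons with TNXB on the other strand. CYP7A1, the rate-limiting enzyme of bile acid synthesis, had 0.092 and 0.29, CYP27B1 had 0.42 and 0.48, and CYP11A1, which starts steroid synthesis, was at 1.52 ± 0.396 CPM (SD, n = 3) in the controls and 0.755 ± 0.563 CPM with sh2-TUG1. CYP8B1 had 0.37 in sh1-TUG1. None of these passed the test, and neither did CYP20A1, a P450 of unknown substrate (0.11 and 0.045).

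All 5 UGT2 genes lie on chromosome 4, from 68815993 to 69526014, and their enzymes attach glucuronic acid to steroids, bile acids and drugs. In sh1-TUG1, 3 of 5 rose and the other 2 did not pass the test, and in sh2-TUG1, 2 rose and 1 fell. Beside these counts, 12.5% of all genes rose in sh1-TUG1, and 21.6% rose and 21.9% fell in sh2-TUG1. UGT2B4, which glucuronidates bile acids, was at 21.2, 25.3 and 25.0 CPM in the sh-Con libraries, 40.7, 35.2 and 40.2 CPM in those of sh1-TUG1 and 59.6, 60.0 and 65.3 CPM in those of sh2-TUG1. The 3 groups did not overlap, and sh2-TUG1 was the highest. UGT2B4 had a log2(fold change) of 0.70 (standard error 0.087, adjusted p = 0.000431) with sh1-TUG1 and 1.37 (standard error 0.080, adjusted p = 2.25e-06) with sh2-TUG1, with 0.67 (standard error 0.078, adjusted p = 4.05e-05) from sh1-TUG1 to sh2-TUG1. UGT2B7, the morphine glucuronosyltransferase, had 0.13 (standard error 0.074, adjusted p = 0.248) in sh1-TUG1 and 0.54 (standard error 0.057, adjusted p = 7.98e-05) in sh2-TUG1.

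UGT2B10, which glucuronidates nicotine, was at 22.3, 24.7 and 25.5 CPM in the sh-Con libraries, 27.5, 26.9 and 28.1 CPM in those of sh1-TUG1 and 16.3, 17.0 and 19.3 CPM in those of sh2-TUG1. The lines lay on either side of the controls. UGT2B10 had a log2(fold change) of 0.18 (standard error 0.070, adjusted p = 0.0845) with sh1-TUG1 and −0.46 (standard error 0.089, adjusted p = 0.0025) with sh2-TUG1, and the difference between hairpins was −0.65 (standard error 0.077, adjusted p = 5.10e-05). UGT2B11 was low, at 1.46, 1.30 and 1.58 CPM in the sh-Con libraries, 2.78, 2.51 and 2.94 CPM in those of sh1-TUG1 and 1.17, 1.74 and 1.74 CPM in those of sh2-TUG1. The sh1-TUG1 libraries alone stood apart. UGT2B11 had a log2(fold change) of 0.92 (standard error 0.20, adjusted p = 0.0095) with sh1-TUG1 and 0.094 (standard error 0.25, adjusted p = 0.784) with sh2-TUG1, and the hairpins differed by −0.82 (standard error 0.21, adjusted p = 0.00875). UGT2A3, the UGT2 gene with the most counts, was at 175, 185 and 169 CPM in the sh-Con libraries, 201, 206 and 189 CPM in those of sh1-TUG1 and 179, 176 and 154 CPM in those of sh2-TUG1. The sh1-TUG1 libraries were the highest, and sh2-TUG1 overlapped the controls. UGT2A3 had a log2(fold change) of 0.17 (standard error 0.051, adjusted p = 0.0326) with sh1-TUG1 and −0.055 (standard error 0.065, adjusted p = 0.527) with sh2-TUG1, with the sh1-TUG1 call lost in 3 of the 6 fits that left out 1 library, with adjusted p up to 0.131.

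Sulfotransferases, which move sulfate from the donor PAPS to phenols, steroids and amines, were lower in sh2-TUG1. Of 8 SULT genes tested there, 5 fell and the other 3 did not pass the test, with a median log2(fold change) of −0.61. In sh1-TUG1, by contrast, 2 of 9 rose and the other 7 did not pass, with a median of 0.24. Over all genes, 21.9% fell in sh2-TUG1 and 12.5% rose in sh1-TUG1. SULT1A1, the main phenol sulfotransferase of liver, was at 105, 96.4 and 94.4 CPM in the sh-Con libraries, 119.6, 122 and 124 CPM in those of sh1-TUG1 and 53.9, 53.8 and 67.7 CPM in those of sh2-TUG1. The sh1-TUG1 libraries were above and the sh2-TUG1 libraries below all controls. SULT1A1 had a log2(fold change) of 0.31 (standard error 0.051, adjusted p = 0.00226) with sh1-TUG1 and −0.75 (standard error 0.091, adjusted p = 0.00018) with sh2-TUG1, and the hairpins differed by −1.06 (standard error 0.081, adjusted p = 1.78e-06). SULT1A2, its neighbour on chromosome 16, was at 29.9, 27.9 and 30.7 CPM in the sh-Con libraries, 30.7, 32.8 and 36.8 CPM in those of sh1-TUG1 and 13.9, 15.3 and 21.1 CPM in those of sh2-TUG1. The sh2-TUG1 group lay apart, below the others. SULT1A2 had a log2(fold change) of 0.18 (standard error 0.077, adjusted p = 0.12) with sh1-TUG1 and −0.81 (standard error 0.13, adjusted p = 0.0011) with sh2-TUG1. SULT1A4 was at 46.5, 46.2 and 44.8 CPM in the sh-Con libraries, 43.9, 44.9 and 45.1 CPM in those of sh1-TUG1 and 25.1, 29.5 and 25.1 CPM in those of sh2-TUG1. Its sh2-TUG1 libraries were again the lowest. SULT1A4 had a log2(fold change) of −0.039 (standard error 0.050, adjusted p = 0.619) with sh1-TUG1 and −0.79 (standard error 0.074, adjusted p = 3.65e-05) with sh2-TUG1. SULT1A4 and SULT1A3 (0.23 and −0.31) encode the same dopamine-conjugating enzyme and share 95.2% and 80.4% of their stretches with other genes, mostly each other, so the division of reads between them is uncertain.

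SULT1C2, a phenol sulfotransferase prominent in fetal tissue, was at 16.3, 17.3 and 14.0 CPM in the sh-Con libraries, 19.7, 17.2 and 19.2 CPM in those of sh1-TUG1 and 6.18, 7.33 and 8.09 CPM in those of sh2-TUG1. The sh2-TUG1 libraries lay below all 6 others. SULT1C2 had a log2(fold change) of 0.24 (standard error 0.097, adjusted p = 0.0999) with sh1-TUG1 and −1.14 (standard error 0.13, adjusted p = 0.000119) with sh2-TUG1, with −1.38 (standard error 0.12, adjusted p = 3.78e-06) between hairpins. SULT2A1, which sulfates DHEA and bile acids and has the most counts of the family, was at 97.9, 94.6 and 133 CPM in the sh-Con libraries, 124, 125 and 161 CPM in those of sh1-TUG1 and 73.2, 69.7 and 117 CPM in those of sh2-TUG1. The third library was the highest of each group, and the groups overlapped. SULT2A1 had a log2(fold change) of 0.33 (standard error 0.14, adjusted p = 0.109) with sh1-TUG1 and −0.33 (standard error 0.19, adjusted p = 0.196) with sh2-TUG1. Between the hairpins the value was −0.66 (standard error 0.19, adjusted p = 0.0143), lost in 3 of the 9 fits that left out 1 library, with adjusted p up to 0.0634. SULT1B1, a thyroid hormone sulfotransferase, was at 1.10, 1.27 and 0.750 CPM in the sh-Con libraries, 1.26, 1.74 and 1.83 CPM in those of sh1-TUG1 and 0.831, 0.958 and 1.14 CPM in those of sh2-TUG1. Neither line passed against sh-Con. The hairpins differed by −0.72 (standard error 0.26, adjusted p = 0.0453), lost in 5 of the 9 fits that left out 1 library, with adjusted p up to 0.141. SULT1E1, the estrogen sulfotransferase, was listed for sh1-TUG1 alone, at 0.677, 1.05 and 0.571 CPM in the controls and 1.83, 1.39 and 1.88 CPM in the knockdown libraries. The groups did not overlap, and the log2(fold change) was 1.15 (standard error 0.29, adjusted p = 0.0172), lost in 3 of the 6 fits that left out 1 library, with adjusted p up to 0.0674. At its sh-Con level in all 6 libraries, its total would lie close to 152 counts, the lowest total listed for sh1-TUG1. SULT1E1 may thus have been listed because it was high there, and its rise is not independent of that listing. It shares 15.5% of its stretches with AC108941.2, which overlaps it on the same strand, so its counts are uncertain. SULT1C4 fell in sh2-TUG1 by 0.47 on the log2 scale, a call lost in 5 of the 6 fits that left out 1 library, with adjusted p up to 0.109.

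Soluble glutathione transferases, which join glutathione to reactive electrophiles, fell in part in sh2-TUG1. There 5 of 9 fell, 4 of them DEGs, and the other 4 did not pass the test, among them GSTO2 (0.18) and GSTT2B (0.29) with values above 0. In sh1-TUG1, 2 of 10 rose and the other 8 did not pass. Among all genes, 21.9% fell and 8.97% were lower DEGs in sh2-TUG1, and 12.5% rose in sh1-TUG1. The alpha class genes GSTA1, GSTA2 and GSTA4 lie together on chromosome 6, from 52750089 to 52995378. GSTA1, the major alpha transferase of hepatocytes, was at 7.11, 7.78 and 5.89 CPM in the sh-Con libraries, 7.09, 6.54 and 8.41 CPM in those of sh1-TUG1 and 2.74, 2.42 and 3.24 CPM in those of sh2-TUG1. The sh2-TUG1 libraries lay below all others. GSTA1 had a log2(fold change) of 0.086 (standard error 0.15, adjusted p = 0.73) with sh1-TUG1 and −1.30 (standard error 0.18, adjusted p = 0.000439) with sh2-TUG1, with −1.39 (standard error 0.17, adjusted p = 6.22e-05) between hairpins. GSTA2, its close copy, was at 2.75, 2.19 and 2.60 CPM in the sh-Con libraries, 2.69, 1.68 and 2.31 CPM in those of sh1-TUG1 and 1.05, 1.26 and 1.19 CPM in those of sh2-TUG1. Again the sh2-TUG1 libraries were the lowest. GSTA2 had a log2(fold change) of −0.17 (standard error 0.23, adjusted p = 0.632) with sh1-TUG1 and −1.11 (standard error 0.22, adjusted p = 0.00306) with sh2-TUG1, and GSTA1 and GSTA2 share 9.85% and 9.06% of their stretches with other genes, chiefly each other. GSTA4, which clears the lipid peroxidation product hydroxynonenal, was at 11.3, 11.8 and 9.24 CPM in the sh-Con libraries, 10.0, 10.3 and 11.6 CPM in those of sh1-TUG1 and 5.17, 5.66 and 6.09 CPM in those of sh2-TUG1. The sh2-TUG1 group did not overlap the others. GSTA4 had a log2(fold change) of −0.014 (standard error 0.12, adjusted p = 0.945) with sh1-TUG1 and −0.93 (standard error 0.13, adjusted p = 0.000513) with sh2-TUG1.

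The promoters of GSTA1 (chr6:52803767-52804066) and GSTA2 (chr6:52763426-52763725) are printed to show how alike this falling pair is, with the same window, build, strand and capitals as above.
GSTA1: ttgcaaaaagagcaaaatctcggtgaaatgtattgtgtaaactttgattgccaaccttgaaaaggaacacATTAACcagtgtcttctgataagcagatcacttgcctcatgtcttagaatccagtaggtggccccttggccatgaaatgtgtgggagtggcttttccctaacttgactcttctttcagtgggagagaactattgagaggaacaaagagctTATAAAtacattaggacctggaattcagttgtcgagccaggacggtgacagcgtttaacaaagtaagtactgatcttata
GSTA2: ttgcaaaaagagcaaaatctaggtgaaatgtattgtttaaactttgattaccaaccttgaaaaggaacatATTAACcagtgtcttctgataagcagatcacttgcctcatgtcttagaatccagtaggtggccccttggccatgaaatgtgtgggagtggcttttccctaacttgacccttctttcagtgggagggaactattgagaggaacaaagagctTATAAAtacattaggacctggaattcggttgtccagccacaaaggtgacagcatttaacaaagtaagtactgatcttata

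The windows were identical at 288 of 300 positions (96.0%), and both held the HNF1 half-site on the opposite strand (ATTAAC) from −180 to −175 and TATAAA from −30 to −25.

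GSTM4, a mu class transferase on chromosome 1, was at 13.5, 12.7 and 12.6 CPM in the sh-Con libraries, 16.3, 14.8 and 15.3 CPM in those of sh1-TUG1 and 7.29, 7.63 and 6.38 CPM in those of sh2-TUG1. The lines lay on either side of the controls. GSTM4 had a log2(fold change) of 0.26 (standard error 0.083, adjusted p = 0.0484) with sh1-TUG1 and −0.87 (standard error 0.11, adjusted p = 0.000215) with sh2-TUG1, and the hairpins differed by −1.12 (standard error 0.096, adjusted p = 3.88e-06). The rise in sh1-TUG1 was lost in 5 of the 6 fits that left out 1 library, with adjusted p up to 0.159. GSTO1, an omega class thioltransferase, had the highest level of the GST genes per kb of annotated exon, though MGST1 had more counts. GSTO1 was at 76.4, 99.8 and 107 CPM in the sh-Con libraries, 117, 110.2 and 116 CPM in those of sh1-TUG1 and 80.7, 81.4 and 69.2 CPM in those of sh2-TUG1. The first sh-Con library was lower than the other two and overlapped sh2-TUG1. GSTO1 had a log2(fold change) of 0.28 (standard error 0.10, adjusted p = 0.081) with sh1-TUG1 and −0.30 (standard error 0.12, adjusted p = 0.0653) with sh2-TUG1, neither past the test, whereas sh2-TUG1 against sh1-TUG1 was −0.57 (standard error 0.10, adjusted p = 0.00101). GSTM3 rose in sh1-TUG1 by 0.27 on the log2 scale and GSTK1, a mitochondrial and peroxisomal transferase, fell in sh2-TUG1 by 0.42. GSTO2, GSTM2 and GSTT2B, all at low levels, did not pass the test in the tables that list them. GSTT2B shares 78.5% of its stretches with other genes, chiefly GSTT2.

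The 3 membrane-bound transferases all fell in sh2-TUG1, and MGST1 also in sh1-TUG1, where 21.9% and 12.3% of all genes fell, in that order. MGST1, which protects membranes from peroxidation, was at 197, 202 and 198 CPM in the sh-Con libraries, 159, 146 and 148 CPM in those of sh1-TUG1 and 134, 133 and 142 CPM in those of sh2-TUG1. Controls were the highest, then sh1-TUG1, then sh2-TUG1, with no overlap. MGST1 had a log2(fold change) of −0.40 (standard error 0.046, adjusted p = 0.000277) with sh1-TUG1 and −0.55 (standard error 0.047, adjusted p = 2.13e-05) with sh2-TUG1. The difference between hairpins, −0.15 (standard error 0.045, adjusted p = 0.0196), was lost in 3 of the 9 fits that left out 1 library, with adjusted p up to 0.0916. MGST2, which also makes a cysteinyl leukotriene, was at 53.5, 52.2 and 48.0 CPM in the sh-Con libraries, 52.2, 53.8 and 51.8 CPM in those of sh1-TUG1 and 32.5, 33.6 and 36.4 CPM in those of sh2-TUG1. The sh2-TUG1 libraries alone were lower. MGST2 had a log2(fold change) of 0.037 (standard error 0.057, adjusted p = 0.682) with sh1-TUG1 and −0.59 (standard error 0.067, adjusted p = 0.000132) with sh2-TUG1. MGST3 had −0.077 in sh1-TUG1 and −0.50 (adjusted p = 0.00554) in sh2-TUG1.

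**Figure D3:**
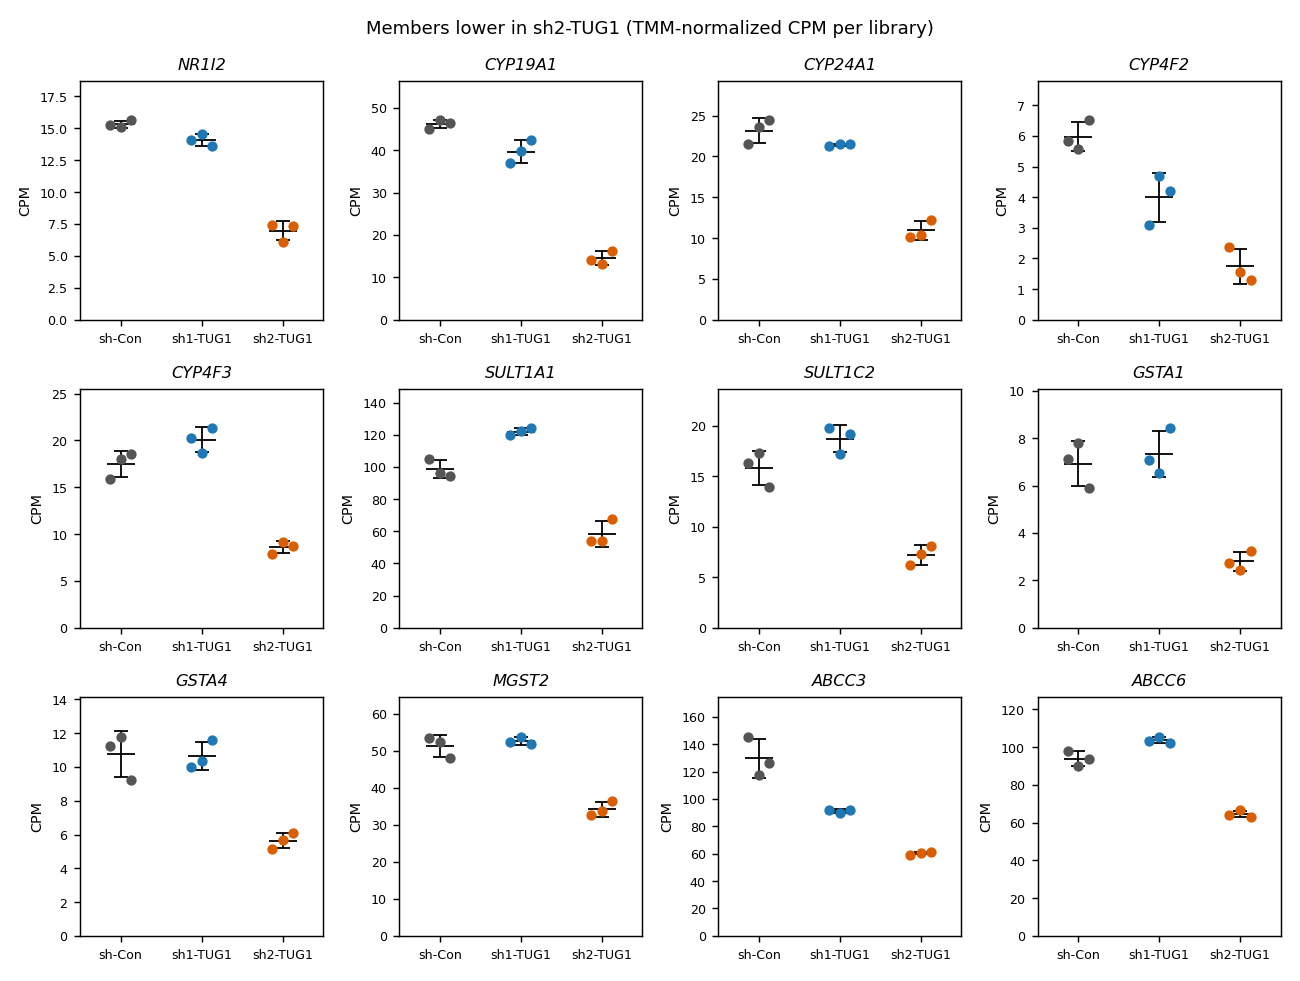
TMM-normalized CPM (vertical axis, from 0) of 12 members, chosen from these data as lower in sh2-TUG1, in each library of the sh-Con, sh1-TUG1 and sh2-TUG1 lines. Points are libraries, and the dash and bars are the mean ± SD of 3 libraries. In all 12 panels the sh2-TUG1 libraries lie below every sh-Con and every sh1-TUG1 library, as the choice of members favoured. Of all 69 members tested in sh2-TUG1, 32 fell and 13 rose.

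The exporters were counted by family, beside the 21.6% of all genes that rose and the 21.9% that fell in sh2-TUG1. Of 7 ABCB genes in sh2-TUG1, 2 rose and 2 fell, of 8 ABCC genes 1 rose and 5 fell, and of 3 ABCG genes 1 rose and 1 fell. The ABCB and ABCG counts lay near the share of all genes, and more ABCC genes fell than that share. In sh1-TUG1, where 12.5% of all genes rose and 12.3% fell, the same families had 1 ABCB gene that fell and, of the ABCC genes, 1 that rose and 3 that fell, and the 3 ABCG genes did not pass the test. ABCB1, the multidrug exporter P-glycoprotein, was at 324, 347 and 334 CPM in the sh-Con libraries, 353, 351 and 348 CPM in those of sh1-TUG1 and 471, 471 and 446 CPM in those of sh2-TUG1. The sh2-TUG1 libraries lay above all 6 others. ABCB1 had a log2(fold change) of 0.064 (standard error 0.041, adjusted p = 0.295) with sh1-TUG1 and 0.46 (standard error 0.047, adjusted p = 6.58e-05) with sh2-TUG1. ABCB4, the phospholipid floppase of bile, rose in sh2-TUG1 by 0.18 (standard error 0.048, adjusted p = 0.016), lost in 2 of the 6 fits that left out 1 library, with adjusted p up to 0.0685. The porphyrin transporter ABCB6 fell there by 0.55 on the log2 scale and shares 42.4% of its stretches with other genes, mainly the overlapping AC068946.2. The mitochondrial ABCB8 had −0.22 and −0.33, with the sh1-TUG1 call lost in 4 of the 6 fits that left out 1 library, with adjusted p up to 0.148, and the sh2-TUG1 call in 1 of the 6 fits that left out 1 library, with adjusted p up to 0.0563.

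ABCC2, which secretes conjugates into bile, was at 457, 476 and 456 CPM in the sh-Con libraries, 361, 349 and 345 CPM in those of sh1-TUG1 and 413, 395 and 391 CPM in those of sh2-TUG1. Controls were the highest and sh1-TUG1 the lowest, with no overlap. ABCC2 had a log2(fold change) of −0.40 (standard error 0.040, adjusted p = 0.000126) with sh1-TUG1 and −0.22 (standard error 0.045, adjusted p = 0.00393) with sh2-TUG1, and sh2-TUG1 was above sh1-TUG1 by 0.18 (standard error 0.039, adjusted p = 0.00275). ABCC3, which exports conjugates on the blood side of the hepatocyte, was at 146, 117 and 126 CPM in the sh-Con libraries, 91.9, 89.6 and 92.3 CPM in those of sh1-TUG1 and 59.4, 60.6 and 61.4 CPM in those of sh2-TUG1. The groups did not overlap, and sh2-TUG1 was the lowest. ABCC3 had a log2(fold change) of −0.51 (standard error 0.072, adjusted p = 0.000932) with sh1-TUG1 and −1.10 (standard error 0.076, adjusted p = 6.09e-06) with sh2-TUG1, with −0.59 (standard error 0.068, adjusted p = 3.92e-05) between hairpins. ABCC11, a transporter of conjugated steroids and cyclic nucleotides, was at 5.58, 5.32 and 5.30 CPM in the sh-Con libraries, 3.28, 4.11 and 3.34 CPM in those of sh1-TUG1 and 2.43, 1.53 and 2.41 CPM in those of sh2-TUG1. The same order held without overlap. ABCC11 had a log2(fold change) of −0.59 (standard error 0.16, adjusted p = 0.022) with sh1-TUG1 and −1.35 (standard error 0.21, adjusted p = 0.000818) with sh2-TUG1, with the sh1-TUG1 call lost in 2 of the 6 fits that left out 1 library, with adjusted p up to 0.0871. ABCC6, the exporter whose loss causes pseudoxanthoma elasticum, was at 97.8, 90.1 and 93.5 CPM in the sh-Con libraries, 103, 106 and 102 CPM in those of sh1-TUG1 and 64.0, 66.5 and 63.0 CPM in those of sh2-TUG1. The sh2-TUG1 libraries were the lowest and sh1-TUG1 the highest. ABCC6 had a log2(fold change) of 0.14 (standard error 0.048, adjusted p = 0.0547) with sh1-TUG1 and −0.54 (standard error 0.054, adjusted p = 5.65e-05) with sh2-TUG1, and −0.68 (standard error 0.047, adjusted p = 8.57e-07) between hairpins. Its pseudogenes, chiefly ABCC6P1, share 12.8% of its stretches.

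ABCC5, a cyclic nucleotide and heme exporter, rose in both lines, from 32.3 ± 1.42 CPM (SD, n = 3) in the controls to 42.2 ± 2.20 CPM with sh1-TUG1 and 49.6 ± 1.97 CPM with sh2-TUG1. ABCC5 had a log2(fold change) of 0.39 (standard error 0.063, adjusted p = 0.00189) with sh1-TUG1 and 0.62 (standard error 0.062, adjusted p = 5.56e-05) with sh2-TUG1. ABCG2, the breast cancer resistance protein, had −0.12 in sh1-TUG1 and 0.31 in sh2-TUG1, where it rose (adjusted p = 0.0133), a call lost in 1 of the 6 fits that left out 1 library, with adjusted p up to 0.0553. ABCG5 and ABCG8, the partners of the sterol exporter, had −0.37 (adjusted p = 0.0211) and −0.16 (adjusted p = 0.329) in sh2-TUG1, and the ABCG5 call was lost in 3 of the 6 fits that left out 1 library, with adjusted p up to 0.0816. ABCC1, a multidrug resistance protein, had 0.060 and −0.024, ABCC10 had 0.059 and 0.065, and ABCB9 and ABCB10 had values from −0.0086 to 0.25. None of these passed the test. ABCC4 fell in sh2-TUG1 by 0.26, lost in 1 of the 6 fits that left out 1 library, with adjusted p up to 0.0567.

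Per length, POR led the members in sh-Con with 77.9 CPM per kb of exon (GENCODE 29), followed by ABCC2 with 59.1, ABCB1 with 57.7, UGT2A3 with 57.5, GSTO1 with 55.8, SULT2A1 with 54.7 and CYP27A1 with 51.2 CPM per kb. The risers were far below them. UGT2B4 went from 9.51 to 15.4 and 24.6 CPM per kb, CYP3A7 from 2.09 to 4.68 and 8.30, CYP1A1 from 2.73 to 6.23 and 7.86, and CYP3A5 from 0.517 to 1.23 and 1.38. By this measure CYP27A1 was the leading P450 in all 3 lines, including sh2-TUG1, where it had 37.4 CPM per kb. The length was that of all annotated exons of a gene joined, which can exceed that of its transcripts. The ranks therefore depend on the annotation. MGST1, with 199 CPM in sh-Con over 7.44 kb, ranked below GSTO1, with 94.4 CPM over 1.69 kb.

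**Figure D4:**
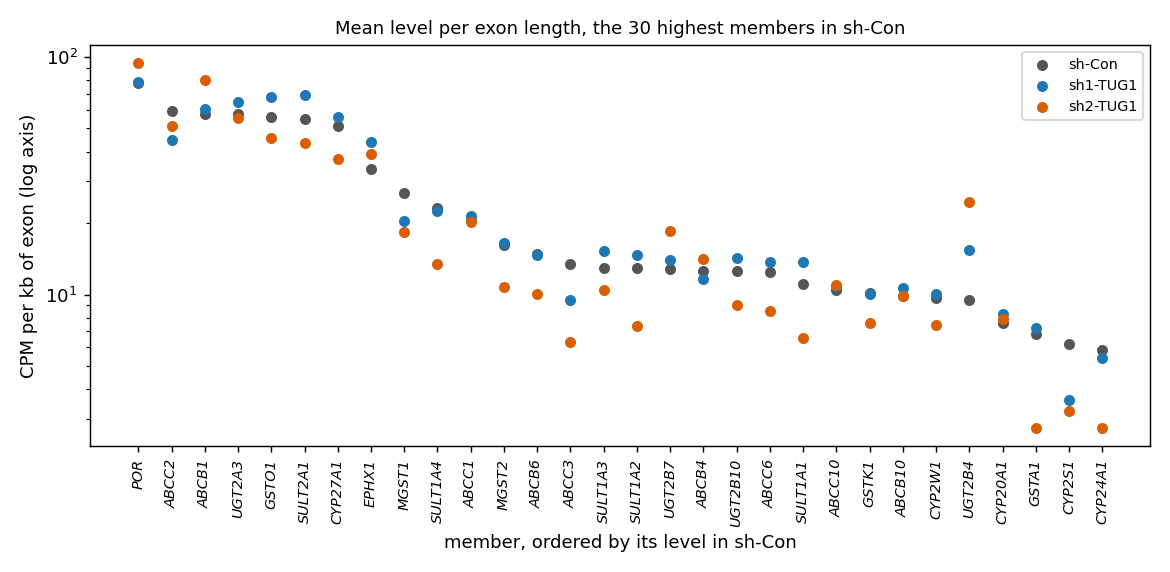
Mean CPM per kb of exon on a log axis for the 30 members with the highest level in sh-Con, in the 3 lines as points without error bars. POR has the highest point in each line, and UGT2B4, ABCC3 and SULT1A1 have clearly separate points for the 3 lines.

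The hairpins were also compared with each other in a fit of all 9 libraries. Of 68 members, 37 had a lower and 11 a higher level with sh2-TUG1 than with sh1-TUG1, against 21.7% and 21.0% of all 12854 genes, and 24 and 3 of them were DEGs, against 8.04% and 2.56%. The members' median was −0.41, beside −0.00067 over all genes. The DEGs that were higher in sh2-TUG1 were CYP2R1, CYP3A7 and UGT2B4. Those lower were 6 of 8 SULT genes, 4 of 9 soluble GST genes, 3 of 5 CYP4 genes, 3 of 8 ABCC genes, 2 of 5 UGT2 genes, MGST2, NR1I2, CYP2D6, CYP2U1, CYP19A1 and CYP24A1. Of the 27 DEGs, 6 were a DEG of neither line against sh-Con.

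**Figure D5:**
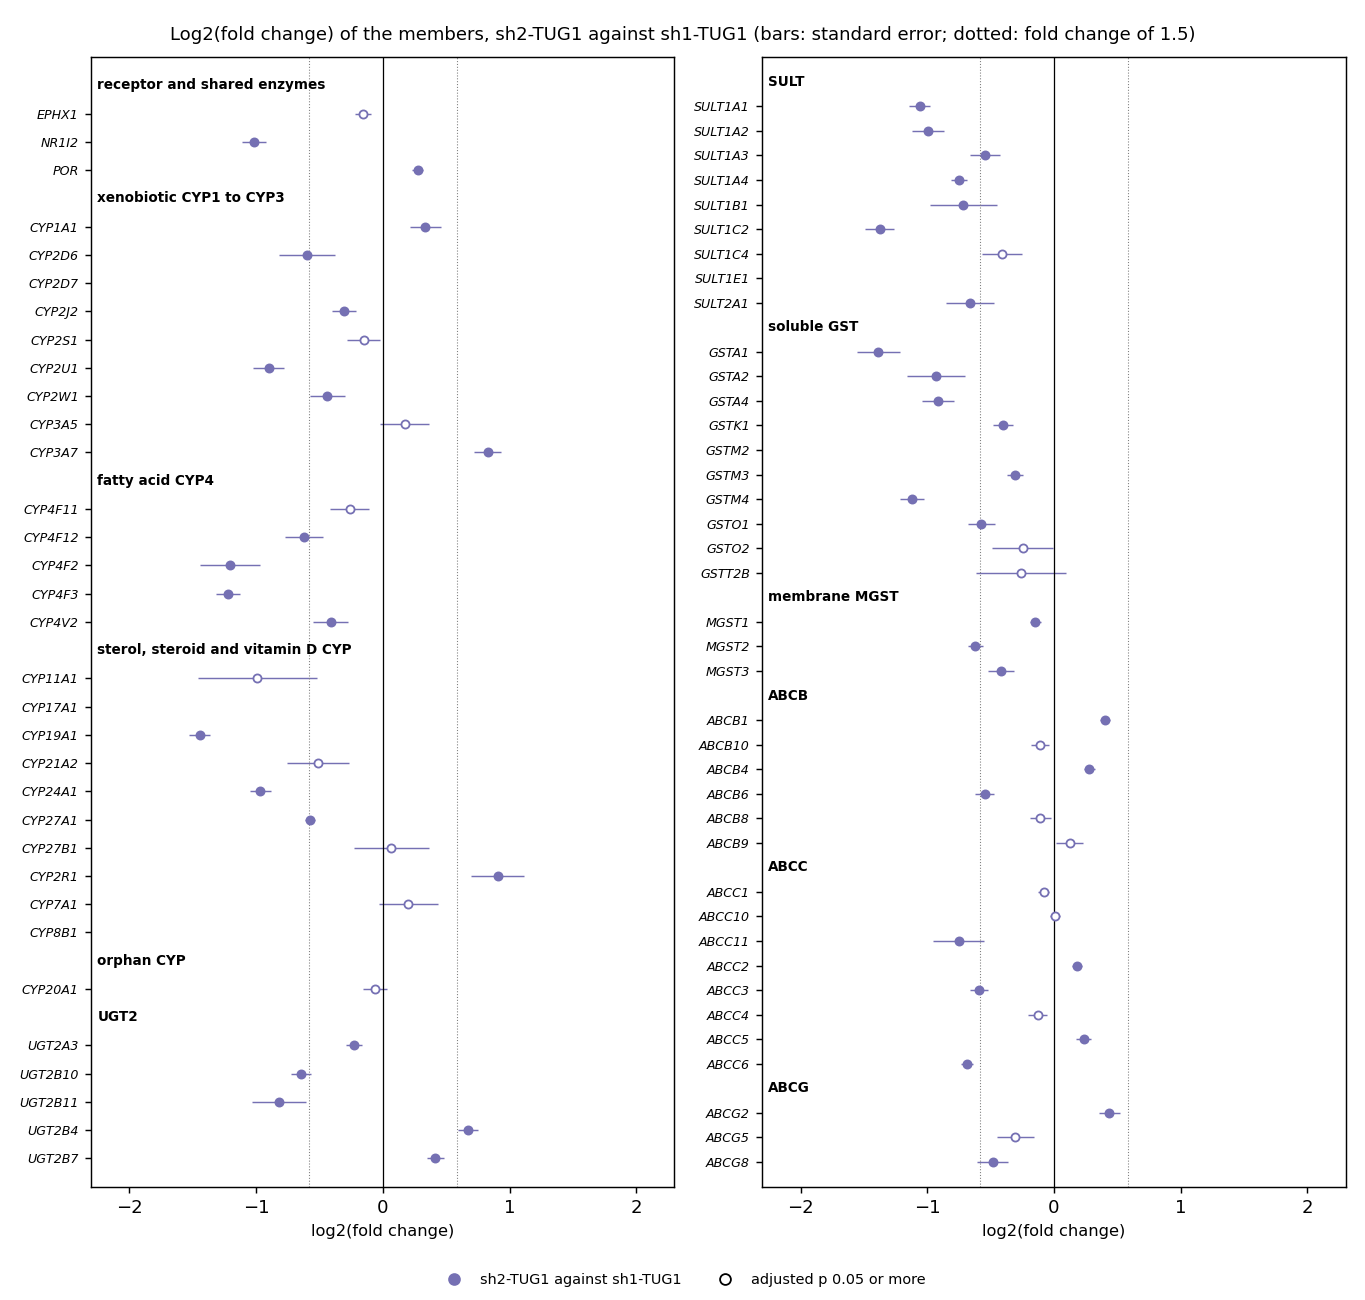
Log2(fold change) of sh2-TUG1 against sh1-TUG1 on the horizontal axis for the members, ordered by role. Points are edgeR estimates with standard error bars, filled where the adjusted p was under 0.05, and dotted lines mark a fold change of 1.5. All 8 SULT points lie to the left of 0, and CYP2R1, CYP3A7 and UGT2B4 lie to the right of the upper dotted line.

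Other genes of the pathway were counted from 4 lists, beside the 12.5% of all genes that rose and 12.3% that fell in sh1-TUG1 and the 21.6% and 21.9% in sh2-TUG1. Of the xenobiotic receptors and liver transcription factors other than NR1I2, 5 of 27 rose and 1 fell in sh1-TUG1, and 13 of 28 rose and 2 fell in sh2-TUG1, with medians of 0.10 and 0.20. NR1H4, the bile acid receptor FXR, was a DEG of both lines, at 0.62 (standard error 0.12, adjusted p = 0.00547) and 0.71 (standard error 0.14, adjusted p = 0.00274). In sh2-TUG1 the glucocorticoid receptor NR3C1 (0.85), NR5A2 (0.90) and the coactivator PPARGC1A (0.66) were also higher DEGs. AHR was at 0.096 (adjusted p = 0.196) in sh1-TUG1 and 0.53 (standard error 0.053, adjusted p = 5.70e-05) in sh2-TUG1, and NR1I3, the constitutive androstane receptor and a relative of NR1I2, at 0.29 and 0.30, neither past the test. HNF4A, a master factor of hepatocytes, fell by 0.20 in sh2-TUG1.

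Of 32 other phase I enzymes and electron donors, 5 rose and 7 fell in sh1-TUG1, and 2 rose and 20 fell in sh2-TUG1, with medians of 0.070 and −0.29. The DEGs of sh1-TUG1 were ADH6 (0.72) and ALDH2 (0.63), both of alcohol and aldehyde oxidation. Those of sh2-TUG1 were all lower, the alcohol dehydrogenase ADH4 (−0.95), the carboxylesterases CES1 (−0.63) and CES3 (−1.79), the carbonyl reductase DHRS4 (−0.68) and the soluble epoxide hydrolase EPHX2 (−0.99). Cytochrome b5, CYB5A, another electron donor of P450, fell by 0.43 in sh2-TUG1, where POR rose. Of the other phase II enzymes and genes of cosubstrate supply, 6 of 26 rose and 7 fell in sh1-TUG1, and 4 of 25 rose and 9 fell in sh2-TUG1, with medians of 0.061 and −0.096. ACSM2A (1.06) and GGT1 (0.76) were DEGs of sh1-TUG1. ACSM2A was listed for sh1-TUG1 alone, so its rise may not be independent of that listing. ACSM2B, listed for both lines, was at 0.41 (adjusted p = 0.176) in sh1-TUG1 and did not pass the test. In sh2-TUG1, BAAT, which conjugates bile acids, was higher (1.31), and PAPSS2, which makes the sulfate donor PAPS, and the bile acid ligase SLC27A5 were lower (−1.22 and −0.87).

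Of the uptake transporters and other exporters, 3 of 21 rose and 5 fell in sh1-TUG1, and 3 of 22 rose and 9 fell in sh2-TUG1, with medians of −0.024 and −0.085. The counts that rose in this list lay near or below the shares of all genes, and those that fell above them. SLC51A, a subunit of the basolateral organic solute transporter, was lower in both lines, from 15.5 ± 1.55 CPM (SD, n = 3) in sh-Con to 5.62 ± 0.733 CPM with sh1-TUG1 and 1.55 ± 0.444 CPM with sh2-TUG1. Its log2(fold change) was −1.46 (standard error 0.13, adjusted p = 6.08e-05) and −3.30 (standard error 0.19, adjusted p = 2.22e-06). Its partner subunit SLC51B was at −0.076 (adjusted p = 0.753) and 0.52 (adjusted p = 0.0158). The uptake transporter SLCO2B1 (−1.35), SLC22A18 (−0.99) and ABCA2 (−1.15) were lower DEGs of sh2-TUG1.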

How the data were processed

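RNA-seq of HepG2 cells (sh-Con, sh1-TUG1 and sh2-TUG1, 3 libraries each, grouped by their titles) was used. The authors deposited, for each knockdown line, raw read counts per gene that carry no normalization, beside FPKM values and their own fold changes and false discovery rates, which were not used. HISAT2, StringTie and GRCh38 are named in the submitters' processing notes without versions, and the counting tool is not given in the sources used here. Library totals were 33051617 to 39393293 counts.

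Counts were analysed in R 4.3.3 with edgeR 4.0.16 (filterByExpr, which removed 0 genes, TMM, glmQLFTest, Benjamini–Hochberg adjustment over all genes). Each line was fitted with sh-Con (6 libraries), and the hairpins in 1 fit of 9. CPM used TMM over 9 libraries, or over the 6 of a table for members listed once, so ratios of CPM differ slightly from fitted folds. SD is over 3 libraries. The standard error is the log2(fold change) divided by the root of the F statistic. Replicates differed by more than read sampling (chi-squared per degree of freedom 6.41 to 25.8 over 10772 genes). Pairs with the first sh-Con library had 22.7 and 25.8, beside 10.6 for the other sh-Con pair. Pairs with the third sh2-TUG1 library had 18.1 and 16.2, beside 6.41 for the other sh2-TUG1 pair. Shared sequence was the share of 100-base transcript stretches found in other GENCODE 29 genes, with positions from GENCODE 29 (GRCh38) and promoters from RefSeq (GRCh38.p14). DESeq2 1.42.0 and the other alternatives are given under the processing results. The code was tested on simulated data.

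Values per library are given for the 2 members with the most counts in each family, POR, EPHX1, NR1I2, members with an absolute log2(fold change) of at least 1 past the test, and every DEG between hairpins. The values of 1 member, which is counted with its family, are not reported here. The members, lists and rules were chosen with earlier results of these data known.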

Additional observations from a re-analysis of the deposited data

Results flagged for a closer look

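For 27 members the hairpins differed by edgeR's test of sh2-TUG1 against sh1-TUG1, which is the test of the difference itself, with an estimated fold change over 1.5. The test was against no difference and does not show that the true difference was over 1.5-fold. Fewer members passed glmTreat, which tests against that limit and is given below. On the log2 scale the difference was 0.91 for CYP2R1, 0.83 for CYP3A7 and 0.67 for UGT2B4, higher in sh2-TUG1. The sulfotransferases were lower in sh2-TUG1, with −1.06 for SULT1A1, −0.99 for SULT1A2, −0.75 for SULT1A4, −0.72 for SULT1B1, −1.38 for SULT1C2 and −0.66 for SULT2A1. The glutathione transferases had −1.39 for GSTA1, −0.93 for GSTA2, −0.92 for GSTA4, −1.12 for GSTM4 and −0.62 for MGST2. The P450 genes had −1.21 for CYP4F2, −1.22 for CYP4F3, −0.62 for CYP4F12, −0.60 for CYP2D6, −0.90 for CYP2U1, −1.45 for CYP19A1 and −0.97 for CYP24A1. The remaining members had −0.65 for UGT2B10, −0.82 for UGT2B11, −0.59 for ABCC3, −0.68 for ABCC6, −0.75 for ABCC11 and −1.02 for NR1I2. Each hairpin was 1 line with 3 technical replicates, so a difference between hairpins and a difference between lines cannot be told apart. Groups of 3 libraries are too small for a test of outlying samples.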

How the results depend on the processing

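The counts of DEGs among the members, 9, 25 and 27 for sh1-TUG1 and sh2-TUG1 against sh-Con and for sh2-TUG1 against sh1-TUG1, stayed within 1.5 times under DESeq2, RLE size factors, scaling by library size, a filter of 1 CPM in 3 libraries, none at all and another set of libraries in the fit. Leaving out 1 library gave 6 to 10, 23 to 28 and 23 to 28. With the replicate number as a block the counts were 9, 25 and 25. The numbers do not pair the samples, since deviations of same-numbered libraries correlated at −0.19 to 0.052. Differently numbered libraries of different lines ranged from −0.14 (sh-Con 1 with sh2-TUG1 2) to 0.26 (sh-Con 1 with sh2-TUG1 3). What these libraries share was not tested. Without the limit on the fold change they were 22, 45 and 48 (3232, 5638 and 5488 over all genes, beside 646, 1726 and 1362), and with glmTreat 2, 15 and 9 (114, 600 and 330), where the limit itself sets the difference.

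Of the 22, 45 and 48 members past the test, 14, 35 and 40 stayed past it under every alternative run, glmTreat aside. The directions that turned belonged to values that did not pass the test. These were POR in sh1-TUG1, at −0.00095 with RLE size factors and −0.00094 with DESeq2, and with library size alone ABCB6 at 0.022, GSTA4 at 0.013 and GSTK1 at 0.0091 in sh1-TUG1. Leaving out 1 library gave, in sh1-TUG1, −0.027 to 0.036 for POR, −0.056 to 0.046 for ABCB6, −0.26 to 0.068 for ABCG5, −0.090 to 0.20 for CYP2W1, −0.025 to 0.17 for GSTA1, −0.12 to 0.051 for GSTA4, −0.093 to 0.078 for GSTK1, −0.013 to 0.064 for MGST2 and −0.13 to 0.067 for SULT1C4, and in sh2-TUG1 −0.071 to 0.016 for GSTM3, −0.28 to 0.090 for SULT1B1 and −0.092 to 0.0098 for UGT2A3. The cause was not tested. With library size alone the median of all genes moved by at most 0.065 on the log2 scale. Members at a few CPM had the widest standard errors.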
